A study of Mus musculus with 9 samples.

Results

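The Skint genes (selection and upkeep of intraepithelial T cells) encode membrane proteins related to the butyrophilins, and the data described here are the values of Skint1 to Skint10 in mouse neck skin with and without allergic contact dermatitis. The members were taken by symbol: all 10 were measured among 30142 named genes, each by 1 transcript cluster, the unit in which the array reports a transcript. Where a gene had several clusters, the one with the highest mean over 9 arrays was to stand for it, so for these 10 genes no choice was made. Skint11, the remaining gene of the family, is given beside them.

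Total RNA of whole neck skin from male C57BL/6 mice, an inbred strain, aged 6 to 8 weeks, was hybridised to Affymetrix mouse arrays, 3 for each of 3 groups. Control skin was labelled healthy. The others had been sensitised on the shaved abdomen with 2.0% of a contact allergen, either oxazolone, a small synthetic chemical, or urushiol, the oil of poison ivy. Both were then painted at 0.5% in 40 µl of acetone on the shaved nape 5 times, beginning 5 days after sensitisation and ending on day 8, and the skin was collected 4 hours after the last painting. The labels do not say whether control mice were shaved or given acetone. Shaving, solvent and allergen therefore cannot be told apart in a comparison with control skin. The labels call the arrays of a group biological replicates.

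Skint proteins resemble butyrophilins in carrying immunoglobulin-like domains outside the cell followed by membrane-spanning segments. They are known mainly from mouse epidermis and thymic epithelium. Skint1 is required in the thymus for the development of dendritic epidermal T cells, the gamma delta T cells that populate mouse epidermis and carry an almost invariant receptor. The roles of most other members are less well known, and Skint2 has also been studied under the name B7S3 as an inhibitor of T cell activation. As background, the family arose by gene duplication, and its members are similar in sequence. No source used here says how the probes divide signal among similar copies, and values of close relatives may share signal.

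Most of the family fell with both allergens, and its members parted widely. In oxazolone-challenged skin 9 of the 10 members fell and 1, Skint3, did not pass the test (limma, adjusted p under 0.05 after Benjamini-Hochberg adjustment over all named genes). Among all genes tested, 6.92% were called lower in that comparison. In urushiol-challenged skin 8 members fell, and Skint2 and Skint3 did not pass, where 6.43% of all genes were called lower. No member rose, while 9.63% and 9.96% of all genes did. The median difference from control was -3.58 log2 units with oxazolone and -3.62 with urushiol, against 0.06 and 0.04 over all genes. In both comparisons 9 of the 10 members had all challenged arrays below all control arrays, which held for 11.5% of all genes with oxazolone and 11.8% with urushiol, and none had all above (21.3% and 21.1% of all genes). Both comparisons use the same control arrays, so they are not independent of each other. In whole skin, fewer cells that express a gene and less of its RNA in each cell cannot be told apart.

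**Figure D1:**
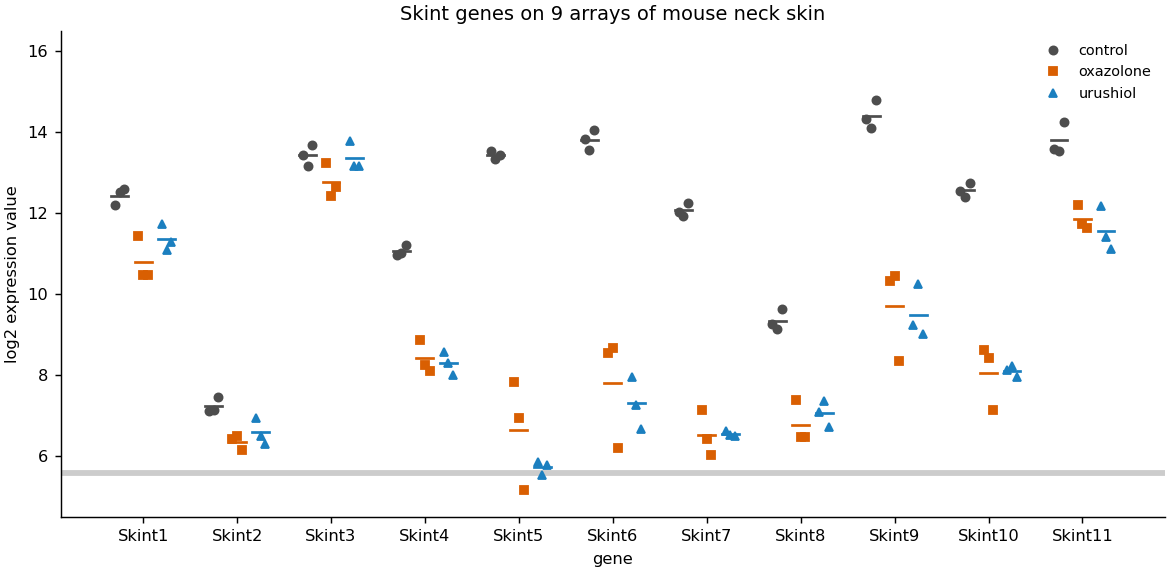
Each point is the log2 expression value of a Skint gene on 1 array, with circles for control, squares for oxazolone and triangles for urushiol (n = 3 arrays each), short lines for group means, and a grey band for the medians of all clusters on the 9 arrays (5.53 to 5.64). Skint5 fell from 13.34 or more on control arrays to 5.85 or less on urushiol arrays, while the Skint3 groups overlap.

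The deepest falls were those of Skint5 and Skint6, adjacent members whose genes are much longer than those of their relatives. Skint5 stood at 13.55, 13.34 and 13.44 on the control arrays, at 7.82, 6.95 and 5.17 on the oxazolone arrays and at 5.85, 5.53 and 5.79 on the urushiol arrays (log2 expression values). Control and challenged arrays did not overlap, and the urushiol arrays lay on average 0.13 log2 units above the median of all clusters of their arrays. The file holds no detection calls. The difference from control was -6.80 ± 0.59 with oxazolone (adjusted p = 0.00125) and -7.72 ± 0.59 with urushiol (adjusted p = 0.000781), where ± is limma's standard error and n = 3 arrays per group here and below. Counted from the lowest difference of all 30142 genes, Skint5 took place 43 with oxazolone and place 2 with urushiol.

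Skint6 read 13.84, 13.56 and 14.07 in control skin, 8.54, 8.66 and 6.21 after oxazolone and 7.96, 7.27 and 6.67 after urushiol. Again no challenged array reached the control range, and oxazolone array 3 was the lowest of all. The differences were -6.02 ± 0.67 (adjusted p = 0.00269) and -6.52 ± 0.67 (adjusted p = 0.00194), at places 59 and 7 from the lowest of all genes.

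Skint7, Skint9 and Skint10 fell by more than 4 log2 units as well. Skint7 gave 12.02, 11.93 and 12.26 on control arrays, 7.13, 6.42 and 6.03 on oxazolone arrays and 6.62, 6.52 and 6.49 on urushiol arrays. Its spread within groups was small beside the gap, with differences of -5.54 ± 0.25 (adjusted p = 0.000165) and -5.53 ± 0.25 (adjusted p = 0.000251). Skint9 ran from 14.12 to 14.81 in control skin, 8.34 to 10.46 after oxazolone and 9.01 to 10.25 after urushiol, and changed by -4.71 ± 0.61 and -4.92 ± 0.61. Skint10 ran from 12.40 to 12.75, 7.15 to 8.62 and 7.95 to 8.23 in the same order, and changed by -4.51 ± 0.36 and -4.47 ± 0.36. For both genes the largest adjusted p of the 2 comparisons was 0.00447. Oxazolone array 3 was the lowest of the oxazolone arrays for these 5 deeply falling members, and without it their differences from control ran from -6.06 for Skint5 to -4.02 for Skint9.

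Skint4, Skint8 and Skint11 fell by an intermediate amount. Skint4 lay between 10.97 and 11.22 on control arrays, 8.11 and 8.87 on oxazolone arrays and 8.00 and 8.57 on urushiol arrays, with differences of -2.66 ± 0.22 (adjusted p = 0.00115) and -2.78 ± 0.22 (adjusted p = 0.000896). Skint8 lay between 9.15 and 9.63, 6.46 and 7.38, and 6.73 and 7.37, with differences of -2.57 ± 0.29 (adjusted p = 0.0028) and -2.29 ± 0.29 (adjusted p = 0.00403). Skint11 lay between 13.55 and 14.26, 11.63 and 12.20, and 11.12 and 12.18, with differences of -1.95 ± 0.32 (adjusted p = 0.0103) and -2.23 ± 0.32 (adjusted p = 0.00619). For all 3 genes the challenged arrays lay below the control arrays. The challenged Skint11 arrays stayed on average 5.97 to 6.24 log2 units above their array medians.

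Skint1, the member with the established role in selecting epidermal T cells, fell less. It stood at 12.20, 12.52 and 12.59 in control skin, at 11.43, 10.48 and 10.47 after oxazolone and at 11.73, 11.10 and 11.29 after urushiol. The groups did not overlap control in either comparison. The difference was -1.64 ± 0.29 with oxazolone (adjusted p = 0.0131) and -1.06 ± 0.29 with urushiol (adjusted p = 0.0485). The oxazolone call was lost without control array 2 (adjusted p = 0.0505). The urushiol call stood close to the threshold and did not survive leaving out any 1 array other than oxazolone array 1 (highest adjusted p = 0.142, without control array 2), with differences between -1.24 and -0.93.

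Skint2 read 7.11, 7.15 and 7.46 on control arrays, 6.42, 6.50 and 6.15 on oxazolone arrays and 6.95, 6.50 and 6.30 on urushiol arrays. Its mean lay 1.70 log2 units above the array medians in control skin, 0.75 after oxazolone and 0.99 after urushiol. The difference was -0.88 ± 0.19 with oxazolone (adjusted p = 0.0224) and -0.66 ± 0.19 with urushiol, which did not pass (adjusted p = 0.0533). Leaving out control array 1, control array 2, oxazolone array 1 or oxazolone array 3 ended the oxazolone call (highest adjusted p = 0.0718, for the last of these), and Skint2 was called with urushiol without urushiol array 1 (adjusted p = 0.03).

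Skint3 changed least of the members and was the only member called with neither allergen. It gave 13.44, 13.17 and 13.70 on control arrays, 13.24, 12.44 and 12.66 on oxazolone arrays and 13.79, 13.16 and 13.17 on urushiol arrays. Oxazolone array 1 lay within the control range, and urushiol array 1 was the highest of all 9. The difference from control was -0.66 ± 0.26 with oxazolone (adjusted p = 0.129) with a 95% interval of -1.28 to -0.03, and -0.06 ± 0.26 with urushiol (adjusted p = 0.919) with an interval of -0.69 to 0.56. After quantile renormalisation Skint3 was called lower with oxazolone (-1.10, adjusted p = 0.0135), so its place among the uncalled genes depends on the scaling. A fall of the size seen in Skint4 lies outside both intervals. The intervals of Skint1 and Skint2 overlap those of Skint3 with each allergen. They were -2.33 to -0.96 and -1.32 to -0.45 with oxazolone, and -1.75 to -0.38 and -1.09 to -0.22 with urushiol.

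The distance between Skint3 and the deepest-falling members, Skint5 and Skint6, was as plain array by array. Subtracting each gene's control mean and then the Skint5 change from the Skint3 change gave 5.43, 5.50 and 7.50 log2 units on the oxazolone arrays and 7.95, 7.64 and 7.39 on the urushiol arrays, against -0.10, -0.16 and 0.27 on the control arrays. The same subtraction for Skint6 gave 5.09, 4.17 and 6.84, then 6.22, 6.28 and 6.89, against -0.01, 0.00 and 0.02. These differences averaged 6.14 ± 1.18 and 5.36 ± 1.36 with oxazolone and 7.66 ± 0.28 and 6.46 ± 0.37 with urushiol (SD, n = 3). They are a description with no test, since this contrast was singled out with results of these data known. Between Skint5 and Skint6 the changes differed by -0.78 ± 0.51 and -1.20 ± 0.63 (SD, n = 3).

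**Figure D2:**
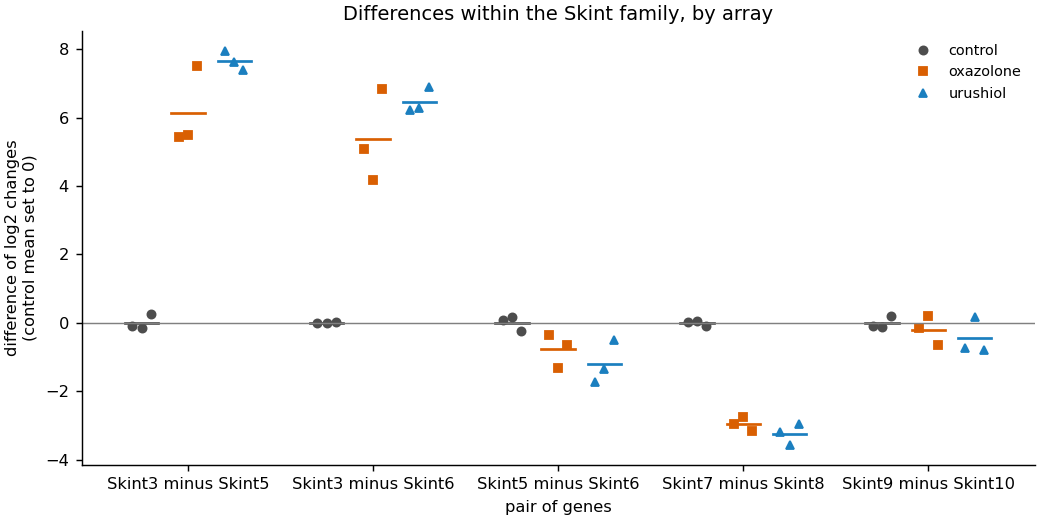
Each point is 1 array's difference between the log2 changes of a pair of Skint genes, with the mean of the control arrays set to 0, circles for control, squares for oxazolone and triangles for urushiol (n = 3 each), and lines for group means. Skint3 minus Skint5 lies at 5.43 or more on every challenged array, while Skint9 minus Skint10 stays between -0.79 and 0.21 on all arrays.

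The urushiol and oxazolone groups overlapped for every member, and none passed the test between them by limma, against 0.0166% of all genes called (0.00664% higher and 0.00995% lower with urushiol). Over all genes, 4.39% had every urushiol array below every oxazolone array and 5.35% the reverse. None of the 10 had an unadjusted p under 0.05 in this fit. With the replicate number as a block, none passed after adjustment, and 1, Skint3, had an unadjusted p under 0.05 (limma, adjusted p = 0.584), as did 7.05% of all genes. Skint3 was higher on the urushiol array of each same-numbered pair, by 0.55, 0.72 and 0.51, with a blocked 95% interval of 0.12 to 1.06. Skint1 was higher in each pair as well, by 0.30, 0.62 and 0.82 (blocked interval -0.13 to 1.29). Differences (urushiol minus oxazolone) ran from -0.92 ± 0.59 for Skint5, with a 95% interval of -2.31 to 0.46, to 0.59 ± 0.26 for Skint3, with an interval of -0.03 to 1.22. Skint7 had the difference nearest 0, 0.02 with an interval of -0.58 to 0.62. The intervals of Skint5, Skint6 and Skint9 reach past -1.5, so with 3 arrays per group differences of that size between allergens are not excluded for these genes.

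The family lies side by side on chromosome 4 in the RefSeq annotation of the mouse assembly GRCm38.p6, in the order Skint8, Skint7, Skint1, Skint4, Skint3, Skint9, Skint2, Skint10, Skint6, Skint5 and Skint11, with no other protein-coding gene between them. Size of fall did not follow this order smoothly. Skint7 changed by -5.54 with oxazolone beside -2.57 for Skint8 and -1.64 for Skint1, and Skint3 (-0.66) lies between Skint4 (-2.66) and Skint9 (-4.71). The members on the minus strand, Skint9, Skint10, Skint6 and Skint5, were all among the 5 that fell by more than 4 log2 units, together with Skint7 on the plus strand.

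**Figure D3:**
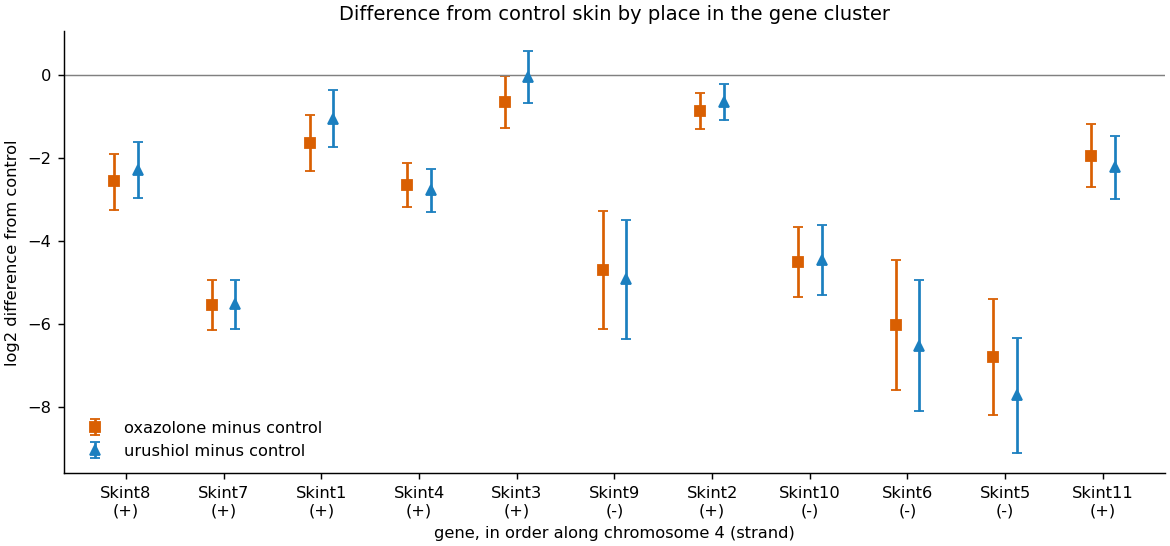
Log2 difference from control skin for each Skint gene, placed in order along chromosome 4 with the strand in brackets, squares for oxazolone and triangles for urushiol, with bars for limma's 95% intervals (n = 3 arrays per group). Skint5 and Skint6 reach -7.72 and -6.52 with urushiol, and Skint3 stays at -0.06 between deeper-falling neighbours.

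RefSeq promoters (250 bases before to 50 after a start, GRCm38.p6, C57BL/6J) were found for all 11 genes, 12 in number since Skint4 has 2 starts. Those of Skint5, Skint6 and Skint3 are shown because they are related in sequence while the genes parted in their response. Capitals mark a run of 14 bases, AGTACTTGAGTAAT, the longest held by promoters of at least 5 family members.
Skint5 (chr4:113999454-113999753, minus strand): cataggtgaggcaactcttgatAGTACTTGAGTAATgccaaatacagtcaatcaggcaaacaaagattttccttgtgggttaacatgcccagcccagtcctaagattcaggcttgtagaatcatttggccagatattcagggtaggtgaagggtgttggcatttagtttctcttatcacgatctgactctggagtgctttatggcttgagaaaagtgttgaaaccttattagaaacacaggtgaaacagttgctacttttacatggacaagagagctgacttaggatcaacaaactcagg
Skint6 (chr4:113286924-113287223, minus strand): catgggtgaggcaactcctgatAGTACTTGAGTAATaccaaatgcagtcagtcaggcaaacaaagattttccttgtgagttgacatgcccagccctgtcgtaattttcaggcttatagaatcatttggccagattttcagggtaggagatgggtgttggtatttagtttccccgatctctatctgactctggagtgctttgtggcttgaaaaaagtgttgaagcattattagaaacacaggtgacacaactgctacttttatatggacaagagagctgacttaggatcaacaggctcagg
Skint3 (chr4:112231995-112232294, plus strand): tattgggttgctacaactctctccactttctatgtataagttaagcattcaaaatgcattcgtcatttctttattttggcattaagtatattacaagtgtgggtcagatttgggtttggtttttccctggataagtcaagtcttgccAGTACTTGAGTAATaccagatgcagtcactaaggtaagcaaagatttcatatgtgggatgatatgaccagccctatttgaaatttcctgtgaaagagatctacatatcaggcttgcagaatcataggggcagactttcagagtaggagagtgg
The Skint5 and Skint6 promoters were identical at 269 of 300 aligned bases (89.7%). Skint3 aligned with Skint6 over 149 bases at 83.2% identity and with Skint5 over 140 bases at 82.9%. Skint3 shared more identical bases with the promoter of the second Skint4 start (193 of 239 aligned) than with Skint6 (124) or Skint5 (116). Skint2 also shared more with Skint6 (191 of 255) and Skint5 (189 of 255) than Skint3 did. The 14-base run occurs in the promoters of Skint1, Skint3, Skint4, Skint5 and Skint6, and in 5 of 32851 mouse promoters on either strand (0.0152%), so in no promoter outside the family. It was picked from these sequences, and near-identical duplicates share such runs. The 5 genes that hold it changed by -1.64, -0.66, -2.66, -6.80 and -6.02 with oxazolone, so its presence did not sort the family by size of fall.

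Skint7 and Skint8, adjacent on the chromosome, form another related pair that differed in its fall. They started from different control means, 12.07 and 9.35. After challenge their means lay close together, at 6.53 and 6.77 with oxazolone and 6.54 and 7.06 with urushiol. How far the starting levels of Skint7 and Skint8 set the gap between their falls was not tested. Capitals mark their longest shared run, 51 bases long, which lies at different distances from the annotated starts.
Skint7 (chr4:111972677-111972976, plus strand): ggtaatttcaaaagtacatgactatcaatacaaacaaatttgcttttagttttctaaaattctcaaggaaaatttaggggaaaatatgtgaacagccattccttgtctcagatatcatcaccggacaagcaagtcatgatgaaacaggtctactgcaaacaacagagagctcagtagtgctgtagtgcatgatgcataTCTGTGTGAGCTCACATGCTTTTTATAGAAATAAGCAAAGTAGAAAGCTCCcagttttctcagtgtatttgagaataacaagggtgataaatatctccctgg
Skint8 (chr4:111919305-111919604, plus strand): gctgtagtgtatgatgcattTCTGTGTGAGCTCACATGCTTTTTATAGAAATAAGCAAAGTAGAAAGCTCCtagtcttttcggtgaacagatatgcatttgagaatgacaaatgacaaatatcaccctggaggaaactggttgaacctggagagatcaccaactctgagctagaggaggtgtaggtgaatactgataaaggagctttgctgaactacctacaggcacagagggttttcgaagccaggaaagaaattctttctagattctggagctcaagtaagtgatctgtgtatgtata
Their promoters aligned over 120 bases at 93.3% identity. Skint7 minus Skint8 nevertheless came to -2.97 ± 0.21 log2 units of change with oxazolone and -3.24 ± 0.31 with urushiol (SD, n = 3). Skint10 and Skint11 (86.1% identity over 244 bases) differed likewise, at -4.51 and -1.95 with oxazolone, whereas Skint9 and Skint10 (82.1% over 168 bases) fell alike, with -0.20 ± 0.43 and -0.45 ± 0.54 between them. These pairs were chosen after the values were seen.

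Motifs of known factor families were searched in the 12 promoters on both strands. The AP-1 motif, TGA and TCA with any single base between them, was found in 1, that of Skint11, and in 7.81% of all promoters. The STAT motif TTCNNNGAA was found in those of Skint8 and Skint9 and in 8.30% of all, and the GATA factor motif, spelled AGATAA, in 1 of the Skint4 promoters and in 11.2% of all. The TATA box letters TATAAA were present in 8 of the 12, against 13.6% of all promoters, and only in Skint1 on the gene's own strand. Promoters related by duplication are not independent: the Skint7 and Skint8 matches to these letters lie within their longest shared run. A match is a description of letters and not of a bound site.

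Genes whose pattern over the 9 arrays was most like a member's were sought among named genes with a standard deviation of at least 0.5 log2 units. The measure was Pearson's r over 9 arrays, given as a description. For Skint5 they were Dab1 (0.992), Skint10 (0.991), the epidermal connexin gene Gjb5 (0.991), Skint6 (0.991) and Krt77 (0.991), and for Skint6 they were Skint10 (0.992), Skint5 (0.991), Skint9 (0.987), the filaggrin relative Flg2 (0.985) and Skint4 (0.985). For all of these the 3 control arrays lie apart from the 6 challenged ones, which such values mostly reflect. Skint3 kept other company: Asah2, a ceramidase gene (0.948), Gnai1 (0.877), the epidermal lipase gene Lipn (0.843), Slc9a9 (0.836) and Fndc9 (0.823). The member most like Skint3 was Skint1 (0.779). Skint3 itself varied by less than 0.5 log2 units, so genes that varied as little as Skint3 were not considered. Asah2 stood at -0.83 ± 0.24 with oxazolone (adjusted p = 0.0563) and 0.14 ± 0.24 with urushiol (adjusted p = 0.759). Its oxazolone difference was called without urushiol array 1 (adjusted p = 0.0396) and under 4 other alternatives, among them quantile renormalisation.

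Of 17 measured relatives in the butyrophilin and B7 families none was called lower. In control skin Btn1a1, Btn2a2, Btnl1, Btnl2, Btnl4, Btnl6, Btnl10, Mog and Pdcd1lg2 lay below their array medians, from -1.50 (Btnl10) to -0.45 (Pdcd1lg2) log2 units. For these genes a fall could hardly be seen. The other relatives lay above the medians, by up to 3.35 (Cd276). Of the 17, 4 rose with oxazolone and 2 with urushiol, with list medians of 0.06 and 0.08. Over all genes 9.63% and 9.96% rose. An unadjusted p under 0.05, in either direction, was reached by 6 and 5 of the 17, against 34.1% and 32.2% of all genes. These unadjusted counts are near the background. Cd274, the gene of the inhibitory ligand PD-L1, rose by 5.17 ± 0.50 with oxazolone and stood at 1.69 ± 0.50 with urushiol (adjusted p = 0.0594), where it was called without oxazolone array 3 (adjusted p = 0.0165). Cd80, a costimulatory ligand, rose by 2.57 ± 0.17 and 2.13 ± 0.17. Butyrophilin itself, Btn1a1, known from the lactating mammary gland, stood at 0.06 and 0.08 and did not pass (adjusted p = 0.312 and 0.206), the first of these turning sign under median centring (-0.0033).

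Receptor genes of the epidermal T cells fell with the Skint genes. Trgv5, the gamma chain variable segment typical of dendritic epidermal T cells, read 8.68, 8.60 and 9.39 in control skin, 5.60, 5.89 and 5.17 after oxazolone and 6.00, 5.61 and 5.98 after urushiol. No challenged array came near the controls, and the differences were -3.34 ± 0.26 (adjusted p = 0.000946) and -3.03 ± 0.26 (adjusted p = 0.00116). Trdv4, the delta chain segment it pairs with, changed by -0.90 ± 0.14 (adjusted p = 0.00947) and -0.68 ± 0.14 (adjusted p = 0.0227), and the T cell surface gene Cd7 by -1.19 ± 0.11 and -1.22 ± 0.11. The urushiol call of Trdv4 was lost without control array 2 or any of the urushiol arrays, at adjusted p up to 0.0689 (urushiol array 3).

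The wider list of 27 measured gamma delta and epidermal T cell genes moved both ways. With oxazolone 11 rose and 4 fell, with a median of 0.34, and with urushiol 3 rose and 6 fell, with a median of -0.07. Cd3e, a chain shared by all T cell receptors, changed by -1.10 ± 0.24 and -1.87 ± 0.24. The genes that rose most with oxazolone were the cytotoxic granule genes Gzmb (4.71 ± 0.92) and Gzma (4.07 ± 1.04), which other lymphocytes also express. Under urushiol they stood at 0.93 and 0.27 and did not pass (adjusted p = 0.548 and 0.91). Of the 3 genes that rose with urushiol, Tyrobp (1.71 ± 0.33) and Jaml (0.73 ± 0.11) rose most. Both rose with oxazolone as well, by 1.76 ± 0.33 and 1.27 ± 0.11. Which cells of the skin gave the Tyrobp and Jaml rises was not tested. Jaml kept its call with each allergen under all 18 alternatives, while Tyrobp lost its call under 2 with oxazolone and 3 with urushiol. None of the 27 was called between the allergens by limma, though 16 had an unadjusted p under 0.05, against 5.88% of all genes. Cd3g, another receptor chain, stood at -0.29 ± 0.29 with oxazolone (adjusted p = 0.523) and fell to -1.25 ± 0.29 with urushiol. Klrk1, the gene of NKG2D, rose by 1.11 ± 0.28 with oxazolone. Several of these calls rested on few arrays: leaving out 1 array ended those of Cd3e and Gzmb with oxazolone in 3 cases each (adjusted p up to 0.0798 without control array 2 and 0.062 without control array 1). It ended those of Gzma and Klrk1 in 8 cases each (up to 0.109 without control array 2 and 0.116 without control array 1), and that of Cd3g with urushiol in 7 (up to 0.0938 without control array 1).

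A list of 12 measured genes joined keratinocyte ligands for these T cells with cytokines and with the growth factors Fgf7, Fgf10 and Igf1, which are known to act on keratinocytes. With oxazolone 2 of the 12 rose, Fgf7 (0.71 ± 0.19) and Il15 (0.14 ± 0.03), and 1 fell, Igf1 (-0.99 ± 0.26). With urushiol 1 fell, Il15 (-0.16 ± 0.03), and none rose. None of these calls was stable: with oxazolone that of Il15 was lost under 16 of 18 alternatives (difference down to 0.07, adjusted p up to 0.317), that of Fgf7 under 12 and that of Igf1 under 10, and with urushiol that of Il15 under 10. Leaving out control array 2 gave the highest adjusted p of single omissions for Fgf7 (0.133), Igf1 (0.127) and Il15 (0.103) with oxazolone, and urushiol array 3 for Il15 with urushiol (0.0739). H60c, a skin ligand for the activating receptor NKG2D, stood at 0.78 ± 0.51 and 1.28 ± 0.51 (adjusted p = 0.325 and 0.135), and was called with urushiol without control array 3 (adjusted p = 0.0425).

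Epidermal markers were read on the same arrays, though whole-skin values cannot show which cells express the Skint genes. The lists of 10 basal and 11 suprabasal markers had array means of 12.04 to 12.42 and 15.81 to 16.58 in control skin, and those of the challenged arrays, 11.73 to 12.33 and 15.73 to 16.43, overlapped them. These means join markers that rose with markers that fell, so their overlap does not show an unchanged keratinocyte content. Krt10, the main keratin of the suprabasal layers, stood at -0.16 ± 0.33 and -0.42 ± 0.33 (adjusted p = 0.772 and 0.449), and Krt5, a basal keratin, at 0.48 ± 0.29 and 0.89 ± 0.29 (adjusted p = 0.292 and 0.0828). Krt10 with oxazolone turned sign without control array 3 (0.04), Krt5 with oxazolone after quantile renormalisation (-0.0206), and Krt5 was called with urushiol without control array 3 (adjusted p = 0.0194). Some epidermal genes did fall deeply: Krt77, a suprabasal keratin, at -8.11 ± 1.05 and -10.35 ± 1.05, the basal keratin Krt15 at -4.17 ± 0.27 and -4.70 ± 0.27, and Flg2 at -3.78 ± 0.36 and -4.18 ± 0.36. Others rose, among them Krt14 by 2.53 ± 0.30 and 3.07 ± 0.30 and Krt1 by 1.98 ± 0.31 and 2.12 ± 0.31. By count, 2 basal markers rose and 2 fell with each allergen, while 4 suprabasal markers rose and 1 fell with oxazolone and 5 rose and 1 fell with urushiol. Of 13 granular and cornified layer markers 6 rose and 3 fell with oxazolone and 8 rose and 3 fell with urushiol (medians 1.51 and 1.85). All 10 markers of stressed keratinocytes rose with both (medians 8.27 and 9.15), of which S100a8 and S100a9 are also on the neutrophil list.

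**Figure D4:**
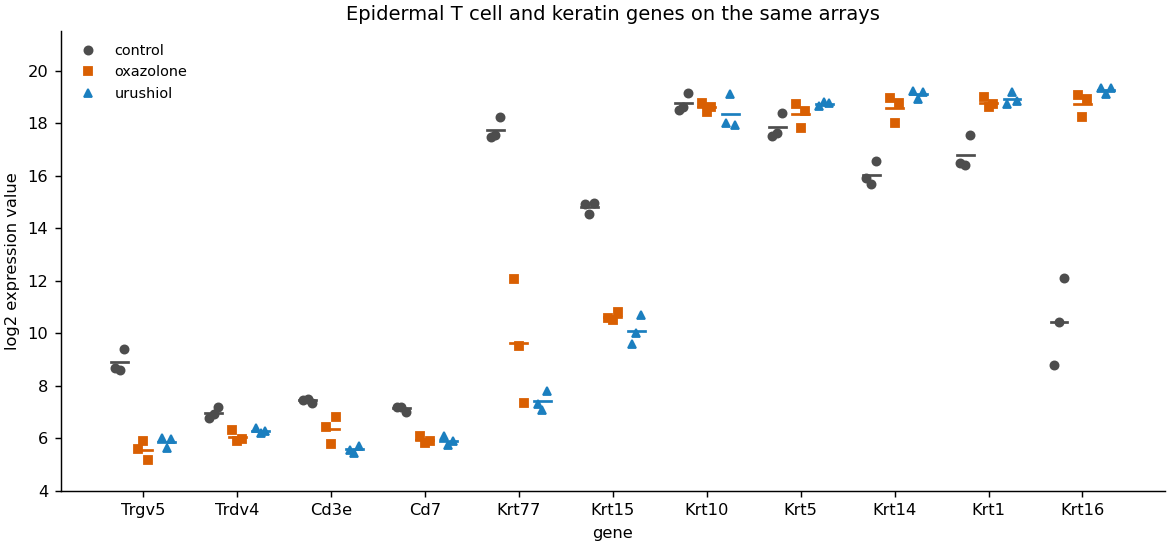
Log2 expression values of selected epidermal T cell genes (Trgv5, Trdv4, Cd3e, Cd7) and keratin genes on each array, with circles for control, squares for oxazolone and triangles for urushiol (n = 3 each) and lines for group means. The T cell genes shown are the 4 of 27 listed that were called lower with oxazolone. The 11 that rose with oxazolone are not shown. Trgv5, Krt77 and Krt15 lie lower on all challenged arrays, Krt10 and Krt5 overlap or nearly overlap control, and Krt14, Krt1 and Krt16 lie higher.

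Other tissue in the samples moved with the groups too. The 12 skeletal muscle markers averaged 15.81 to 17.99 on control arrays, 6.92 to 9.09 after oxazolone and 11.27 to 12.16 after urushiol, and all 12 were called lower with each allergen. The 16 hair follicle markers averaged 6.19 and 6.32 on control arrays 1 and 2 but 11.84 on control array 3, and 10.64 to 14.01 on the challenged arrays. None of the 16 was called by limma, though 13 with oxazolone and 1 with urushiol had an unadjusted p under 0.05. Over all genes 34.1% and 32.2% did. Of 9 neutrophil markers 7 rose with each allergen, and their means went from 6.99 to 7.33 in control skin up to 10.50 to 11.68 after challenge. Of 8 adipocyte markers 6 fell with oxazolone and 5 with urushiol. Of 6 markers of Langerhans cells, the dendritic cells of the epidermis, 1 fell with oxazolone and 2 with urushiol (medians -0.42 and -0.46). The part of muscle, fat, follicles and neutrophils in the Skint differences was not tested. Control array 3 also differed from control arrays 1 and 2 in muscle markers (15.81 against 17.99 and 17.91), stressed keratinocyte markers (9.88 against 7.76 and 8.56) and granular and cornified layer markers (13.39 against 12.31 and 12.30). It was the highest control array for every Skint member other than Skint5, by 0.15 to 0.39 log2 units over the control mean, and for Skint11, by 0.46. Without it 9 members were called lower with oxazolone and 7 with urushiol, where 10.8% and 10.2% of all genes were.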

How the data were processed

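The authors deposited log2 values, with 1 value for each array and transcript cluster. The submitters' processing notes name Affymetrix Expression Console 1.4, RMA and the Transcriptome Analysis Console, with no role or order. Values run from 2.20 to 19.93, above the 16 that a 16-bit scan can reach. No source used here names the step behind this, and a difference of 1 may therefore not be a doubling of RNA. No Skint value exceeded 14.81. No genome build is named.

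Of 72688 features, 6732 array controls were left out. Of the 65956 others, 30604 carried 1 symbol, 2146 several and 33206 none. Symbols were updated through the gene ID (827 clusters, RefSeq GRCm38), which gave 30142 genes, each by its cluster of highest mean. Trgv5 is Tcrg-V5 in the platform annotation. Groups came from the sample titles. All 9 arrays entered 1 limma 3.58.1 fit (R 4.3.3, lmFit and eBayes, two-sided), checked on simulated data with 200 changed genes. Adjusted p values are limma's, by Benjamini-Hochberg over all 30142 genes at 0.05. The number of arrays limits the precision (median standard error 0.113). With 3 arrays against 3 an exact permutation test cannot go below p = 0.1. Promoters were aligned locally with Biopython 1.88.

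Same-numbered arrays of different groups correlated at -0.232 to 0.337 in their deviations from group means, and 5 of 9 pairs exceeded 0.1. Different-numbered pairs ran from -0.29 to 0.285, and 5 of 18 exceeded 0.1. The same-numbered oxazolone and urushiol pairs were at 0.201, 0.197 and 0.124, against -0.18 to 0.021 for their different-numbered pairs. No label pairs the arrays, so the main fit used no block. The replicate number was a block only in an alternative fit, which included the controls.

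Named were the family, the 5 genes most like Skint3, Skint5 and Skint6, up to 2 called genes per direction of each list described, and a listed set of T cell, butyrophilin and keratin genes. The genes of short counts and the promoter pairs were chosen after their values were seen. The members and gene lists were chosen with earlier results of these data known. Alternatives were the mean of a gene's clusters, a fit and adjustment over all clusters, a filter on dim genes, quantile renormalisation and median centring. Further ones were another variance model, 2 groups alone, a replicate block, a threshold of 0.01, and omission of single arrays.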

Additional observations from a re-analysis of the deposited data

How the results depend on the processing

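The count of Skint members called lower stayed between 7 and 10 with oxazolone and between 7 and 9 with urushiol under every alternative run, and none was called higher. Over all genes the share called lower ran from 1.97% (threshold of 0.01) to 13.8% (dim genes left out) with oxazolone and from 1.90% to 12.7% with urushiol. Quantile renormalisation called 9.74% and 7.77% of all genes lower and median centring 8.65% and 7.59%, against 6.92% and 6.43%. With the replicate number as a block the count of members was 9 with oxazolone and 7 with urushiol, where Skint1 was lost, and the block changed no other member's call. Between the allergens the count was 0 under every alternative. Without 1 array in turn the counts ran from 7 to 9, from 7 to 8 and from 0 to 0. Skint4 to Skint10 were called in both comparisons with control under all 18 alternatives, though the mean of clusters leaves the values of these genes unchanged. Uncalled differences turned sign in places: leaving out 1 array gave a range of -0.2717 to 0.0683 for Skint3 with urushiol, and between the allergens -0.28 to 0.11 for Skint4, -0.23 to 0.32 for Skint7, -0.90 to 0.16 for Skint9 and -0.42 to 0.32 for Skint10. For other genes it gave -0.5567 to 0.0533 for Cd3g and -0.285 to 0.04 for Krt10 with oxazolone, and -0.0817 to 0.3033 for Asah2 and -0.05 to 0.315 for Gnai1 with urushiol. Quantile renormalisation gave -0.0206 for Krt5 with oxazolone and, with urushiol, -0.1035 for Asah2 and -0.0531 for Gnai1, and median centring gave -0.0033 for Btn1a1 with oxazolone. The cause of these changes was not tested. The file holds no detection calls, so how far dim values understate a fall was not tested.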
